A study of Mus musculus with 2 samples.

Results

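The genes described here are the interleukins, the chains of their receptors and the antagonists and decoys that bear the same symbols on Affymetrix mouse expression arrays. A gene was a member if its symbol on the array platform read Il, a number and any further letters or digits, such as Il18, Il7r or Il10rb, and if a probe set (a group of short oligonucleotides that reports 1 transcript) named this gene alone. The rule found 73 genes among 18194 named on the arrays. They were reported by 115 probe sets, and the brightest probe set over both arrays stood for its gene. The series holds 2 arrays, 1 hybridised with total RNA of the small intestine and 1 with total RNA of the colon, both taken as biopsies from wild-type adult mice. They were meant to be set beside transcript measurements by other techniques, and the only comparison they allow is small intestine against colon. With 1 array per tissue there is no spread between replicates, no test was run, and every difference below compares these 2 arrays. Levels are normalized expression values on the log2 scale, differences are small intestine minus colon, and values are set side by side only within a probe set, since brightness also depends on the probes.

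Interleukins are small secreted proteins by which immune, epithelial and stromal cells instruct each other, and they act through receptors built from a chain that is particular to the ligand and a chain shared within a family. Chains shared by many receptors include Il6st (gp130), Il10rb and Il17ra. In the gut wall, epithelial and stromal cells are known as sources of IL-7, IL-15, IL-18 and IL-33, lymphocytes as sources of IL-17A and IL-22, and the epithelium carries receptors for IL-22, IL-17 and IL-13 that govern its antimicrobial and mucus products. Soluble antagonists such as Il1rn, Il18bp and Il22ra2 occupy a receptor or trap a ligand.

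Both arrays carried the epithelial markers of an intestinal sample, with 11 of 11 above a background level of 5 in small intestine and in colon. Of 4 measured Paneth cell markers 3 were at least 3-fold higher in small intestine, and of 7 goblet cell markers 4 were at least 3-fold higher in colon. Exocrine pancreas markers stood apart, with 2 of 8 above background in small intestine and 8 of 8 in colon, and 7 of them were at least 27.1-fold higher in colon, up to at least 496-fold for the elastase Cela3b. Of 9 markers of intraepithelial and cytotoxic lymphocytes, 4 were at least 3-fold higher in small intestine and none in colon, as were 3 of 9 T cell markers. Smooth muscle ran the other way, with none of 8 markers at least 3-fold higher in small intestine and 5 in colon. None of the 4 neutrophil and none of the 8 mast cell markers exceeded background on either array. In tissue RNA, fewer cells of a type and less RNA per cell cannot be told apart.

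Most of these genes were at background in the gut. Only 27 of the 73 members (37%) exceeded the background level of 5 on either array, whereas 60.5% of all 18194 genes did so. The number of members was 37 at a background level of 4, beside 70.4% of all genes, and 19 at a level of 6, beside 52.5%. Of these 27 genes, 17 exceeded it in both tissues, 7 in small intestine alone and 3 in colon alone. The share differed by role, with 7 of 32 ligands, 16 of 31 receptor chains and 4 of 6 antagonists and decoys above background. The other 4 members, which fall in none of these roles, were all at background. By family, 10 of 19 members of the IL-1 family, 6 of 9 of the IL-17 family, 5 of 13 of the common gamma chain family and 3 of 9 of the IL-10 family were above it.

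At a difference of 3-fold or more, with values below 5 raised to 5, 3 members were higher in small intestine, namely Il33, Il7r and Il22ra1. Another 3 were higher in colon, namely Il17re, Il1rn and Il1r1. This makes 4.11% of members in each direction, near the 3.46% of all genes that were higher in small intestine and the 3.33% that were higher in colon, and a share this near that of all genes is no result about interleukin genes. Over members above background the median difference was 0.24, against -0.06 over all genes above background, and under the alternatives it lay between 0.08 and 0.46. Of the 27 members above background, 16 differed by less than 2-fold, 5 by 2-fold to under 3-fold and 6 by 3-fold or more.

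**Figure D1:**
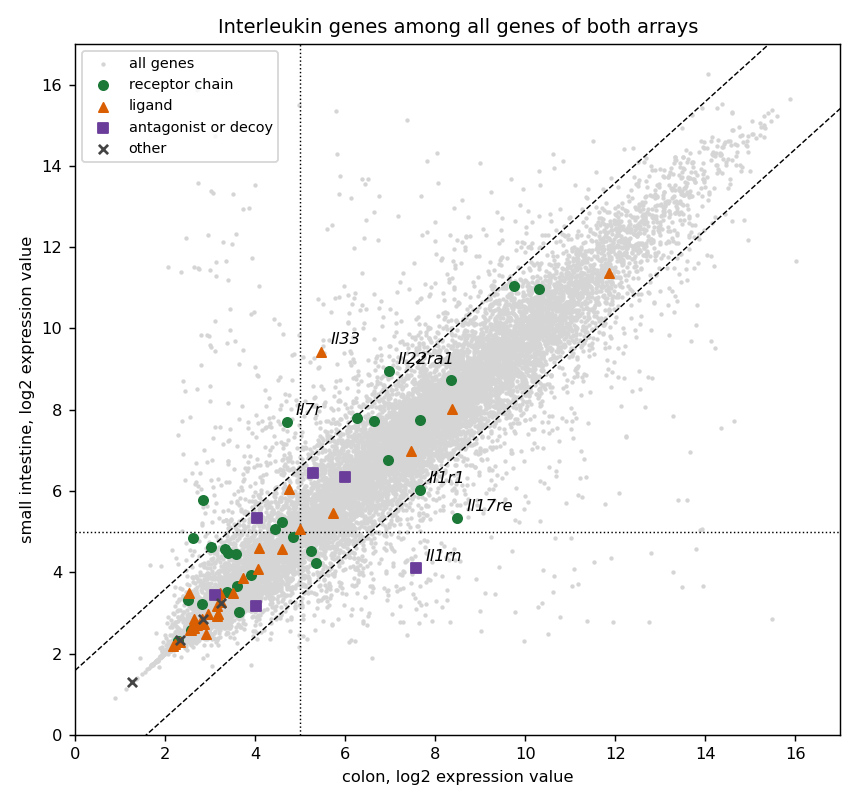
Grey points are 18194 genes, plotted by log2 expression value in small intestine (vertical) against that in colon (horizontal), and coloured symbols mark the 73 interleukin genes by role. Dotted lines mark the background level of 5 and dashed lines a 3-fold difference; the 6 named genes lie above background in at least 1 tissue and beyond 3-fold, and 46 members sit in the lower left corner.

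The widest difference of all members was that of Il33, a cytokine of the IL-1 family that is stored in the nucleus of epithelial, endothelial and stromal cells and released when they are damaged. Il33 had 9.43 in small intestine, against 5.47 in colon, which is 15.6-fold higher in small intestine. Of all 18194 genes, 109 (0.599%) had a larger difference in this direction. A single probe set reported Il33, so no second reading was at hand, and its receptor chain Il1rl1 was not analysed here. As log2 of the summed level, epithelial markers had 16.93 in small intestine and 16.60 in colon (11 genes). Of these, 1 was at least 3-fold higher in small intestine and none in colon. The markers of endothelium had 8.18 in small intestine and 8.13 in colon (7 genes). Those of fibroblasts were lower in small intestine (12.71, against 13.83 in colon, 7 genes). The part of cell makeup in the difference of Il33 was not tested. The promoter of Il33 is shown because no other member differed as much. RefSeq lists starts for it on chromosome 19, and the window from 250 bases before to 50 after the downstream one (GRCm38.p6, chr19:29945540-29945839, + strand) is printed with a TATA box (TATAAA, searched on both strands) in capitals, which begins at position -29 from the start.
Il33: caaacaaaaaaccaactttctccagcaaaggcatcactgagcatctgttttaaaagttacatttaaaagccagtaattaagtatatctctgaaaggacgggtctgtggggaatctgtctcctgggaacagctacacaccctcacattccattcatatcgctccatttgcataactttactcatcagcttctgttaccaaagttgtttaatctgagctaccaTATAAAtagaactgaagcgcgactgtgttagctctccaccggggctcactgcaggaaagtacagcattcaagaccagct
The window at the other start had the same letters at position -203. Of 32851 promoter windows of this length, 13.6% hold these letters, so a match describes the sequence only.

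Other ligands and antagonists of the IL-1 family went in several directions. Il18, which epithelial cells hold as a precursor until caspase-1 cleaves it, had 11.36 in small intestine and 11.86 in colon, a difference of -0.50. Its binding protein Il18bp, a soluble trap for IL-18, had 6.45 in small intestine and 5.28 in colon (2.25-fold higher in small intestine). The receptor chain for IL-18, Il18r1, had 5.78 in small intestine and 2.83 in colon, at least 1.71-fold higher against the background level, and its partner chain Il18rap was at background in both tissues (3.31 in small intestine and 2.51 in colon). The receptor chain Il18r1 and the trap were thus both higher in small intestine. The difference of Il18 was smaller than the SD of 0.54 between probe sets of a gene, given below. Some lymphocyte markers, given below for Il7r, were also higher in small intestine, and their part in the difference of Il18r1 was not tested. Il1b, an inflammatory ligand made by activated phagocytes, lay at the background level in both tissues (5.07 in small intestine and 5.0 in colon), and Il1a was below it (3.48 and 3.50).

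The antagonist of the IL-1 receptor, Il1rn, and the receptor itself, Il1r1, were both higher in colon. Il1rn had 4.10 in small intestine, against 7.58 in colon, at least 5.98-fold higher in colon. A second probe set of Il1rn gave 4.21 in small intestine and 6.86 in colon (at least 3.64-fold), and the third was at background on both arrays. Of all genes, 203 (1.12%) had a larger difference towards the colon than Il1rn. Il1r1, the signalling chain for both IL-1 ligands, had 6.03 in small intestine and 7.65 in colon, 3.09-fold higher in colon and just past the threshold. After quantile normalization its difference was -1.57, and after centring on hybridization spike-ins -1.38, both under 3-fold. The accessory chain Il1rap had 4.23 in small intestine and 5.34 in colon, at least 1.27-fold higher in colon. The decoy receptor Il1r2, which binds IL-1 without a signal, went the other way with 5.34 in small intestine and 4.03 in colon (at least 1.27-fold higher in small intestine). Il1rl2, the receptor chain for IL-36, was near background (5.06 in small intestine and 4.45 in colon), and its ligands Il1f6, Il1f8 and Il1f9 and the antagonist Il1f5 were at background in both. Smooth muscle markers also differed towards the colon (13.07 in small intestine and 14.50 in colon, as log2 of the summed level of 8 genes), as did the exocrine pancreas markers (12.70 in small intestine and 15.51 in colon, 8 genes). The part of either in the differences of Il1r1 and Il1rn was not tested. The window at the first listed start of Il1rn (GRCm38.p6, chr2:24336610-24336909, + strand) is shown as that of the antagonist with the widest difference, with an AP-1 site (TGANTCA) in capitals at position -141.
Il1rn: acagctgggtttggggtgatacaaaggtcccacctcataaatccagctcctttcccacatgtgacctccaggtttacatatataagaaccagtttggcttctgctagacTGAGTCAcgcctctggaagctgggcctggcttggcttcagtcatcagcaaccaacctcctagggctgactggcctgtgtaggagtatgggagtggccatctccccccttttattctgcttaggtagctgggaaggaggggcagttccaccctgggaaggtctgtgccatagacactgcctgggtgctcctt
The AP-1 letters stood in 7.81% of all windows. No searched motif was in the windows of Il1r1 or Il17re, and the other windows of Il1rn held no AP-1 match.

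Receptors of the common gamma chain family serve T cells and other lymphocytes, and here Il7r was higher in small intestine while its ligand differed little. Il7r, the IL-7 receptor chain of naive and memory T cells and of innate lymphoid cells, had 7.69 in small intestine, against 4.70 in colon, at least 6.46-fold higher in small intestine. Its ligand Il7, a survival factor made by epithelium and stroma, had 6.99 in small intestine and 7.47 in colon, a difference of -0.48. This is smaller than the SD of 0.54 between probe sets of a gene, given below. The other probe set of Il7 was at background, with 4.77 in small intestine and 4.50 in colon. Il15, which epithelial cells present to intraepithelial lymphocytes, had 8.02 in small intestine and 8.38 in colon (-0.36), and its presenting chain Il15ra had 4.53 and 5.25 (at least 1.19-fold higher in colon). The chain Il2rb, through which lymphocytes receive IL-15 and IL-2, stayed under background with 4.85 in small intestine and 2.62 in colon. Of 9 T cell markers, 5 were above background in small intestine and 4 in colon. At 3-fold or more, 3 of them were higher in small intestine and none in colon. Their median floored difference was 0.19, and the log2 summed level was 9.83 in small intestine and 7.94 in colon. Of 6 measured markers of innate lymphoid cells, 1 was at least 3-fold higher in small intestine and 1 in colon. Cd3g, a subunit of the T cell receptor complex, was 7.85-fold higher in small intestine, and the integrin Itgae of intraepithelial lymphocytes 9.81-fold, whereas Cd3e had 5.19 in small intestine and 4.84 in colon. The part of lymphocyte content in the difference of Il7r was not tested. The other probe set of Il7r was at background on both arrays (3.53 in small intestine and 2.96 in colon), and the difference was 0.61 when the probe sets were replaced by their median. The window of Il7r (GRCm38.p6, chr15:9529827-9530126, - strand) is printed in the direction of the gene, with a Stat site (TTCNNNGAA) in capitals at position -142.
Il7r: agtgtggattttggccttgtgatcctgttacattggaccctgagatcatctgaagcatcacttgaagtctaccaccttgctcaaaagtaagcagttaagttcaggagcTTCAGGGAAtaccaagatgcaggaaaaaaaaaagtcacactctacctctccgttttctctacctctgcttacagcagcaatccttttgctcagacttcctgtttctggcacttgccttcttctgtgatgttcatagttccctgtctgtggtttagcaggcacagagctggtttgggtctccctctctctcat
These letters stood in 8.3% of all windows and in 14.3% of the 70 windows of members, and a match describes the sequence only.

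By their brightest probe sets, the IL-4 and IL-13 receptor chains Il4ra and Il13ra1 were both higher in small intestine but under 3-fold. Il4ra, which joins with the gamma chain or with Il13ra1 to bind IL-4 and IL-13, had 7.79 in small intestine and 6.26 in colon (2.88-fold), the member just short of the threshold. After centring on hybridization spike-ins its difference of 1.78 was past 3-fold, whereas it was 0.00 with the median over probe sets. Its other probe sets were at background on both arrays, with 4.45 in small intestine and 4.44 in colon for 1 of them and 2.40 and 2.32 for the other. Il13ra1 had 11.04 in small intestine and 9.74 in colon (2.48-fold). Among the other probe sets of Il13ra1, 1 gave a difference of 1.36, 1 gave 0.39 and 1 ran the other way at -0.55, so its direction depended on the probes. The ligands Il4, Il5 and Il13, which type 2 lymphocytes release against worms, were at background on both arrays, at most 3.85. The decoy chain Il13ra2 was also at background, with 3.16 in small intestine and 4.02 in colon. Il25, the cytokine by which tuft cells start the type 2 response, had 2.28 in small intestine and 2.32 in colon, and its receptor chain Il17rb had 5.24 and 4.59 (at least 1.18-fold higher in small intestine).

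A receptor chain for IL-22 was the third member higher in small intestine. The ligand genes Il22, Il17c and Il17f and the common gamma chain Il2rg were not among the members, so they have no values here. Il22ra1, the ligand-specific chain that confines IL-22 responses to epithelial and other non-blood cells, had 8.95 in small intestine and 6.97 in colon (3.94-fold). Only 1 probe set reported Il22ra1. Its partner Il10rb, also a chain of the IL-10 receptor, had 10.98 in small intestine and 10.30 in colon (1.61-fold). The soluble trap Il22ra2, which binds IL-22 away from cells, had 6.34 in small intestine and 6.0 in colon (1.26-fold). The last of these differences was smaller than the SD between probe sets of a gene given below. The other chain of the IL-10 receptor, Il10ra, was under background (4.47 in small intestine and 3.39 in colon), as was Il10 itself (2.24 and 2.22). Epithelial markers summed to 16.93 in small intestine and 16.60 in colon, on the log2 scale over 11 genes. The window of Il22ra1 (GRCm38.p6, chr4:135727909-135728208, + strand) is shown because it held matches to more than 1 motif, an AP-1 site (TGANTCA) at position -222 and a GATA site (AGATAA) at -204, both in capitals.
Il22ra1: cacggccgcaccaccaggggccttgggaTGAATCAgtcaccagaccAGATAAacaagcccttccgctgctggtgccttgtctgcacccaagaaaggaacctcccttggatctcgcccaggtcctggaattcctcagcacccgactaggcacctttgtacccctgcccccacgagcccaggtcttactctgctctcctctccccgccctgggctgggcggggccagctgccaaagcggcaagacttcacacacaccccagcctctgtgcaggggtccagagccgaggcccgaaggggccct
The GATA letters stood in 11.2% of all windows.

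**Figure D2:**
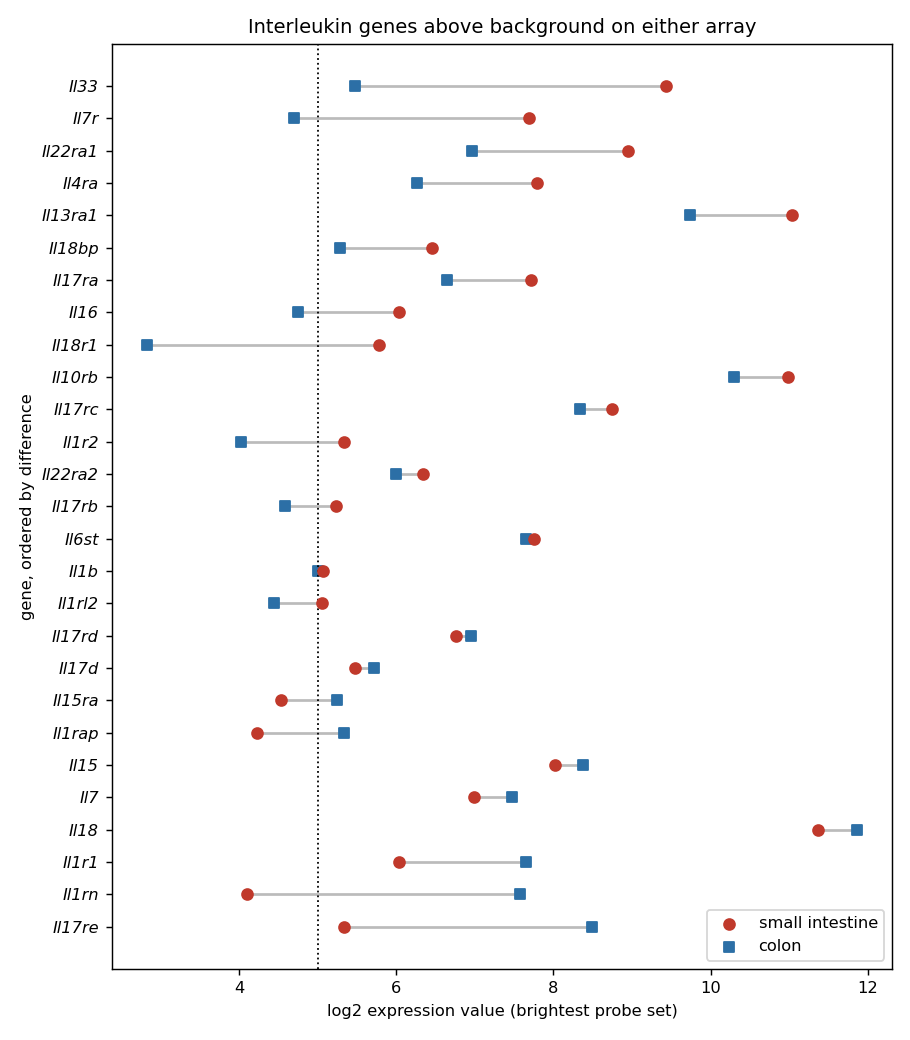
Each row is 1 of the 27 members above background on either array, ordered by floored difference, with its log2 expression value on the small intestine array (red circles) and on the colon array (blue squares) with a dotted line at the background level (5). Il33 at the top has 9.43 in small intestine and 5.47 in colon, and Il17re at the bottom has 5.34 in small intestine and 8.49 in colon.

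All 5 measured receptor chains of the IL-17 family were above background on either array, beside 60.5% of all genes. Of these chains 4 were so in both tissues and Il17rb in small intestine alone. Of their 4 measured ligands only Il17d was above background. Il17re, which with Il17ra forms the epithelial receptor for IL-17C, had 5.34 in small intestine, against 8.49 in colon, 8.88-fold higher in colon. Of all genes, 121 (0.665%) had a larger difference in this direction. The shared chain Il17ra went the other way with 7.71 in small intestine and 6.65 in colon (2.09-fold higher in small intestine). Il17rc, the partner of Il17ra in the receptor for IL-17A and IL-17F, had 8.74 in small intestine and 8.34 in colon, and Il17rd, a chain that also limits growth factor signals, had 6.76 and 6.95. The chains that pair with Il17ra therefore differed among themselves, with Il17re alone past 3-fold. Il17d had 5.47 in small intestine and 5.72 in colon, and Il17a, the product of Th17 and innate lymphocytes, stayed under background (4.60 and 4.08). The name of the Il17d probe set marks shared probes, and its other set was at background (3.81 and 3.80). The second sets of Il17ra, Il17rc and Il17rd were also at background. The call of Il17re rests on a probe set whose name marks shared probes. Its other probe sets were at background, with 4.49 in small intestine and 4.47 in colon for 1 of them and 3.18 and 4.36 for the other. Goblet cell markers (16.59 in small intestine and 17.38 in colon, as log2 of the summed level of 7 genes) and the exocrine pancreas markers were also higher in colon, and their part in the difference of Il17re was not tested. Without probe sets whose names mark shared probes or several transcripts, or with the median over probe sets, the floored difference of Il17re was 0.00. Without such marked sets Il17rc was at background on both arrays (2.71 in small intestine and 2.69 in colon), and Il17rb had no value.

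Of the IL-6 and IL-12 families, 1 of 12 members was above background. This was Il6st (gp130), the signal chain shared by IL-6, IL-11, IL-27 and other receptors, which had 7.75 in small intestine and 7.65 in colon. A second probe set of Il6st gave 4.97 in small intestine and 6.11 in colon, at least 2.16-fold higher in colon. Il6ra, the chain that binds IL-6, lay just under background in both tissues (4.87 and 4.85). The ligands Il6, Il11, Il12a, Il12b, Il23a and Il31 had values of 2.56 to 4.08. Il16, a chemoattractant for CD4+ cells made from a precursor of lymphocytes, belongs to no receptor family named above and had 6.04 in small intestine and 4.75 in colon (at least 2.05-fold higher in small intestine). The other 3 probe sets of Il16 were at background.

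The 46 members at background on both arrays had values of 1.26 to 4.87. For 26 of them the 2 arrays differed by less than 0.1. In 2 of them, Il2rb and Il12rb1, the values as deposited differed by over 3-fold, with 4.85 and 4.62 in small intestine and 2.62 and 3.01 in colon, although both tissues lay under the level of 5. The lymphocyte receptor chains Il10ra, Il21r and Il27ra also lay between 4 and 5 in small intestine alone, with 4.47, 4.46 and 4.57 in small intestine and 3.39, 3.58 and 3.33 in colon. The lymphocyte ligands Il2, Il3, Il4, Il5, Il9, Il13, Il17a and Il21 were all in this group. It also held the ligands Il1f10, Il17b, Il20, Il24 and Il34 and the receptor chains Il2ra, Il3ra, Il5ra, Il9r, Il12rb2, Il20ra, Il20rb and Il31ra, with values of 2.17 to 4.59. The last 4 members of the group were the amino acid oxidase Il4i1, the antisense gene Il1bos and the neuronal receptor-like genes Il1rapl1 and Il1rapl2. A value under background does not show that a gene is absent, since RNA of rare cells is diluted in tissue.

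Most members had a single reading above background. Of the 27 members above background, 17 had more than 1 probe set on the arrays, and in 14 of these only the brightest exceeded background. The 3 others were Il13ra1, Il1rn and Il6st, of which Il1rn alone kept 1 direction in all sets above background. Over 3535 genes with several probe sets above background on both arrays, the pooled SD of the difference between probe sets of a gene was 0.54. This spread stands for probes and not for animals, and it does not cover genes at background on 1 array, such as Il7r and Il1rn.

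**Figure D3:**
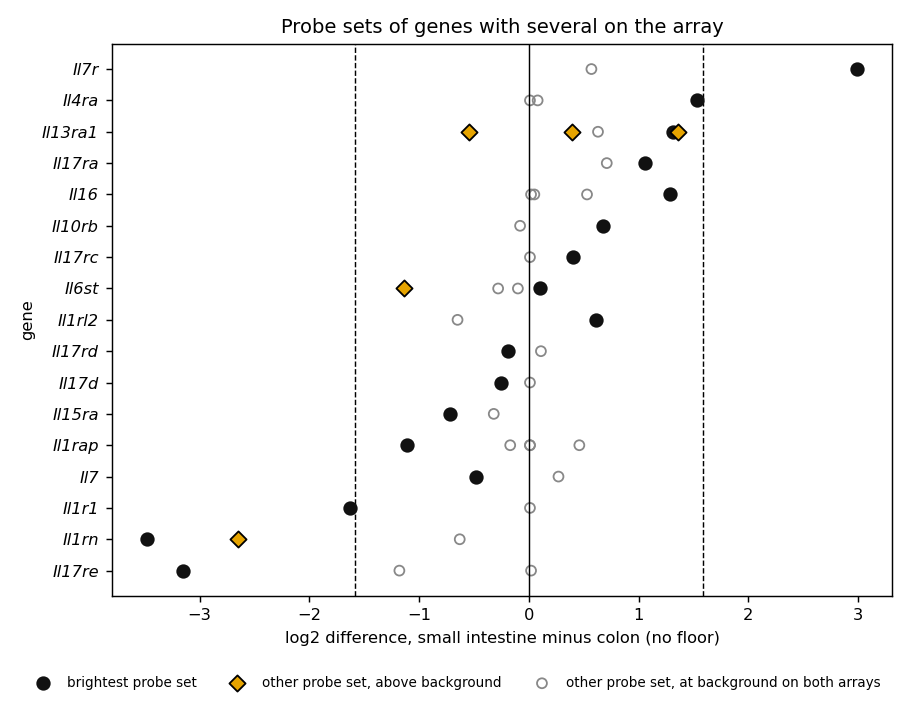
For the 17 members above background with several probe sets, each symbol is 1 probe set placed by its log2 difference, small intestine minus colon, without a floor; black circles are the brightest sets, yellow diamonds other sets above background and open circles sets at background on both arrays. Dashed lines mark 3-fold; the second set of Il1rn lies beyond the left line with the brightest, whereas the sets of Il13ra1 fall on both sides of 0.

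Several members lie side by side in the genome, and the differences of these neighbours are given as a description. On chromosome 1, Il1r2, Il1r1, Il1rl2, Il18r1 and Il18rap follow each other, with the gene Il1rl1 as the only other protein-coding gene between them. Their floored differences were 0.34, -1.63, 0.06, 0.78 and 0.00 in this order. Il1r2, Il1rl2 and Il18r1 were at background in colon, and Il18rap was so on both arrays. On chromosome 6, Il17re and Il17rc are neighbours with no protein-coding gene between them, and their differences were -3.15 and 0.40. That of Il17rc was smaller than the SD of 0.54 between probe sets of a gene. Both were 0.00 without probe sets marked as shared or for several transcripts, so opposite directions are not established. On chromosome 2, Il1rn (-2.58) closes a row of IL-1 family genes that runs from Il1f8 through Il1f9, Il1f6, Il1f5 and Il1f10, and these 5 were at background on both arrays, so they have no direction. On chromosome 7, Il4ra (1.53) is next to Il21r, which was at background on both arrays.

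Genes that carry the signal inside the cell are given by list, to be read beside the 3.46% of all genes higher in small intestine and the 3.33% higher in colon. Of 10 measured Jak kinases and Stat factors none reached 3-fold, with Jak2 at 11.24 in small intestine and 10.32 in colon and Stat6, the factor of IL-4 and IL-13, at 10.12 and 9.0. Stat3, through which IL-22 and IL-6 signal, had 9.35 in small intestine and 9.42 in colon. None of 14 adaptors of IL-1 and IL-17 receptors reached 3-fold, and the kinase Irak1, which acts downstream of IL-1 receptors, had 9.56 in small intestine and 9.87 in colon. Of 18 inhibitors of signalling, Socs3, which dampens gp130 and Stat3 signals, was 4.47-fold and Tollip, which restrains IL-1 receptor signals, 3.55-fold higher in small intestine, and none was in colon. In the inflammasome list, Aim2, a sensor of cytosolic DNA, was 4.67-fold higher in colon and none of the other 9 reached 3-fold. Casp1, the protease that matures IL-1 and IL-18, had 12.36 in small intestine and 12.98 in colon. Of 24 related cytokines and chains without the Il symbol, Csf2rb, the beta chain shared by the receptors of IL-3, IL-5 and GM-CSF, was 3.74-fold higher in small intestine (7.35, against 5.45 in colon). Ifngr1, a chain of the interferon gamma receptor, had 9.08 in small intestine and 9.59 in colon.

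Of 18 measured targets of IL-17 and IL-22, 2 (11.1%) were at least 3-fold higher in small intestine and 3 (16.7%) in colon, beside 3.46% and 3.33% of all genes. Lists this short are given as a description, and nothing is read from their shares. The antimicrobial lectins Reg3a (at least 66.5-fold) and Reg3g (34-fold) were higher in small intestine. The acute phase proteins Saa1 (15.7-fold) and Saa2 (6.32-fold) and the fucosyltransferase Fut2 (at least 5.65-fold) were higher in colon. Reg3b, also of the lectin family, was 2.97-fold higher in small intestine, just under the threshold. Saa1 and Saa2 are near-identical genes, so their probe sets may share signal. Of 12 targets of IL-4 and IL-13, Itln1 was 217-fold higher in small intestine, and Retnlb (at least 359-fold) and the goblet cell protein Clca1 (3.89-fold) were higher in colon. Itln1, Retnlb and Clca1 are also products of Paneth or goblet cells, and Itln1 and Clca1 are themselves among the Paneth and goblet markers counted above. Of 13 lymphoid factors for interleukin production, 3 (23.1%) were higher in small intestine, namely Maf (46.1-fold), Prdm1 (3.67-fold) and Id2 (3.22-fold), and none in colon, and all 3 are also known in epithelial cells.

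**Figure D4:**
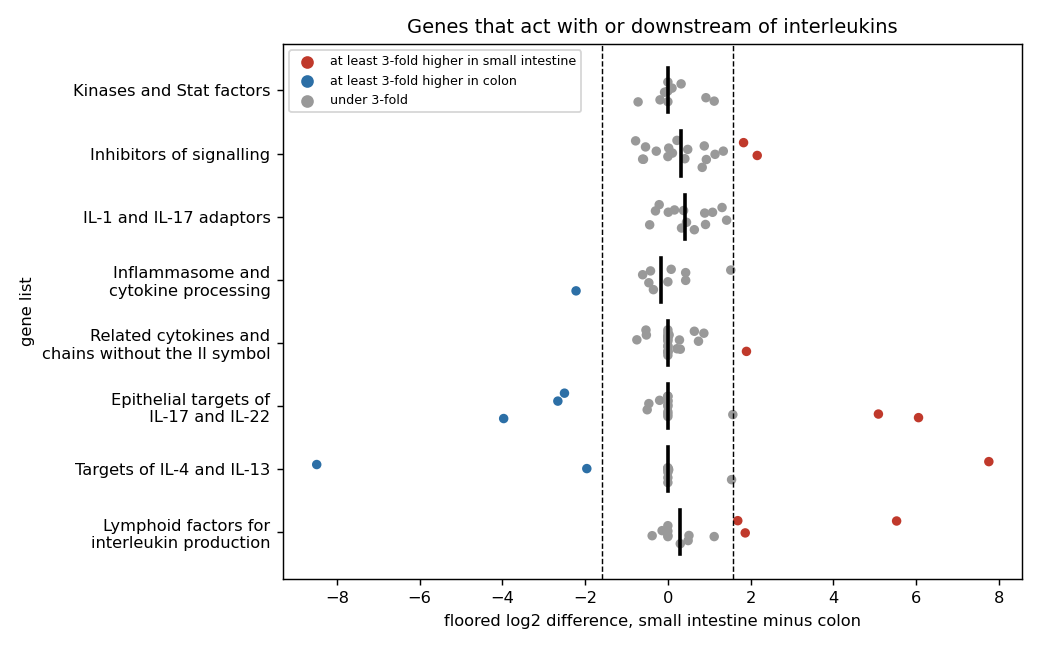
Each point is 1 gene of 1 of 8 lists of interleukin signalling partners, targets and lineage factors, placed by its floored log2 difference (small intestine minus colon). Red points are at least 3-fold higher in small intestine and blue points in colon, black bars are list medians, which run from -0.18 to 0.42, and dashed lines mark 3-fold; the widest points are Itln1 on the right and Retnlb on the left.

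Promoter windows were listed for 57 of the 73 members, 70 windows in all. A TATA box stood in 15.7% of them (13.6% of all 32851 windows), a Stat site in 14.3% (8.3%), an AP-1 site in 20% (7.81%), a GATA site in 14.3% (11.2%), a Cdx site (TTTATNG) in 10% (10.9%) and an Irf site (GAAA, any 2 bases and GAAA again) in 2.86% (3.44%). Matches were counted on both strands, several windows belong to 1 gene, and some windows of a gene overlap. Among the 6 members past 3-fold, Il22ra1 and Il1rn had an AP-1 match, Il7r the Stat match, Il33 a TATA match before its starts, Il1rn a TATA match on the other strand after another of its listed starts, and Il22ra1 the GATA match, so that no single motif was shared by the 3 members of either direction.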

How the data were processed

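Total RNA of small intestine and colon biopsies was isolated by the authors on Qiagen RNeasy columns, checked on a Bioanalyzer, labelled with biotin and hybridised to 1 array per tissue. The deposited values are log2 expression per probe set, normalized by the authors. The submitters' processing notes give GCRMA, a method that adjusts background by probe sequence and can widen folds against dim values. The study's own methods give RMA instead, and no version is stated in the sources used here. The study describes jejunum and distal colon of C57B6 mice, but cites another accession for its arrays, so whether this holds here is not known.

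Of 45101 probe sets, 34958 named 1 gene in the platform annotation, 932 named several and were not used (3 of them with a member symbol), and 9211 had no gene name, of which 51 were controls. The background level of 5 lay above all values of 80 olfactory and vomeronasal receptor probe sets (highest 4.78). Array medians were 3.99 (small intestine) and 4.01 (colon). Values under 5 were raised to 5, a gene was called at a floored difference of 3-fold (1.58), and a fold against a tissue at background is written as a lower bound. The number of arrays limits the precision. All members above background are named with values; other lists are described by counts, members past 3-fold and a few more. Members, lists and motifs were chosen with earlier results of these data known. All 73 members matched the RefSeq table (GRCm38.p6) by symbol. Promoter windows and gene order are from RefSeq. The calling procedure was tested on simulated differences, placed only in genes well above background in colon. The simulated noise was smaller than the spread between probe sets of a gene, so the test does not show how reliable the calls are. Alternatives were other background levels and folds, no floor, other normalizations, other probe set choices and a narrower symbol rule. Analyses used Python 3.11.15, numpy 2.4.6, pandas 2.3.3 and matplotlib 3.10.9. Sequencing libraries were not used here.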

Additional observations from a re-analysis of the deposited data

How the results depend on the processing

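The base had 3 of 73 members higher in each tissue. A fold of 2 gave 8 members in small intestine and 3 in colon, beside 6.95% and 8.14% of all genes. The median over probe sets gave 2 members in small intestine and 1 in colon, beside 2.61% and 2.41% of all genes. Under the other alternatives the counts stayed between 2 and 4 in each direction. Il33 and Il22ra1 were called under each of 8 alternatives that keep the fold and the symbol rule. Their differences were 3.43 to 4.21 and 1.98 to 2.23. Each had only 1 probe set, with no mark of shared probes, so alternatives in the choice of probe sets could not change their calls. Il7r lost its call with the median over probe sets. Il17re lost its call with that and without probe sets marked as shared or for several transcripts. Il1rn lost it at a background of 6 (-1.58). Il1r1 lost it under 3 alternatives, the lowest in size being -0.08 with the median over probe sets. Il4ra, at 1.53, had 1.78 after spike-in centring and 0.00 with the median over probe sets. All its probe sets were marked as shared or for several transcripts, so it had no value without such sets. The 27 members above background became 37 at a level of 4 and 19 at 6, beside 70.4% and 52.5% of all genes. They became 19 with the median over probe sets, beside 50.3% of all genes. Without probe sets marked as shared or for several transcripts, 18 of 65 members were above background, beside 55.5% of all genes. Under the narrower symbol rule 20 of 55 members were. Il18r1 was past 3-fold without a floor (2.95) and at a background of 4 (1.78). Centring on hybridization spike-ins moved the median of all genes above background to 0.17, against -0.06 as deposited, with 4.6% of all genes higher in small intestine and 2.45% in colon. Of 212 values of single members under alternatives, 184 kept their call and moved by less than 0.54. For members past 3-fold this held for 36 of 48 values. The other 12 lost the call or moved further, and none reversed. No paired analysis was possible because each tissue had 1 array.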
